A study of Mus musculus with 8 samples.

Results

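CD34 and its relatives podocalyxin (Podxl), endoglycan (Podxl2), endomucin (Emcn) and CD164 are sialomucins, surface proteins whose extracellular stretches are densely covered with sialylated O-linked sugars. The 5 genes were taken by name, and a gene was measured here by a probe set annotated with that gene alone. This gave 4 genes, Cd34, Podxl, Emcn and Cd164, each with 1 such probe set, out of 22180 genes named on the array, and all 4 passed the filter on low signal among 17576 tested genes. The probe set of Podxl2 was also annotated with a second gene, so Podxl2 was not analysed here. A further probe set that names Cd34 together with another gene was left out for the same reason.

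The 8 arrays came from bone marrow of C57/Bl6 mice, 8 weeks old per the labels, sorted into 3 populations that were all Lin-Sca1+Kit+, that is, without lineage markers and with Sca1 and Kit. Long-term hematopoietic stem cells (LT-HSC) were CD48-CD150+CD34- and had 2 arrays, replicates 1 and 3. Short-term hematopoietic stem cells (ST-HSC) were CD48-CD150+CD34+ and had 3 arrays, and multipotent progenitors (MPP) were CD48+CD150-CD34+ and had 3 arrays. The labels disagree on handling: each description says there was no treatment, but a protocol given for every sample has cells exposed to DMSO for 2 hours and carried through a primary recipient for 1 year and a secondary recipient for 3 months. No source used here says whether the arrays came from separate animals or pools, so the p-values cover the spread among these arrays alone, and that spread may be technical. CD34 protein was itself part of the gate, so the Cd34 transcript is a check of the sort as well as a member of the family.

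CD34, podocalyxin and endoglycan form one structural family with a mucin domain, a membrane-spanning segment and a short cytoplasmic tail. The tail binds adaptors that link to the actin cytoskeleton, and the sugars can act as a ligand for selectins or, on most cells, keep membranes apart. Endomucin and CD164 are sialomucins of separate families. Endomucin is known from venous and capillary endothelium and from stem cells of the marrow, and CD164 from adhesion and CXCR4-dependent migration of progenitors. In the mouse, loss of surface CD34 is the conventional mark of the long-term repopulating stem cell, and its gain marks the step to short-term stem cells and progenitors.

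The stretches of 250 bases before the annotated transcription start are shown for Cd34, Emcn and Cd164, the measured members with an entry in the promoter table. They are RefSeq sequences of build GRCm38.p6. Thus 3 of the 4 measured genes matched that table, Podxl had no entry, and the stretches of the unmeasured Podxl2 are not shown. Capitals mark matches on either strand to AGGAAG, a core that transcription factors of the ETS family bind, to GGGCGG, the GC box of the SP and KLF families, or to CACGTG, an E box of the MYC and USF type. The letters AGATAA, bound by the GATA family, and TGTGGT, bound by the RUNX family, were searched as well.
Cd34 (chr1:194938571-194938820, plus strand): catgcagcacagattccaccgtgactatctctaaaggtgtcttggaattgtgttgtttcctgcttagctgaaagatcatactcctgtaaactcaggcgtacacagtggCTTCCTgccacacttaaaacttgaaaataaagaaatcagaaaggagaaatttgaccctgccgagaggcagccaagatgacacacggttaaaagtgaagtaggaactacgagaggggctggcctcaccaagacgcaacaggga
Emcn (chr3:137340828-137341077, plus strand): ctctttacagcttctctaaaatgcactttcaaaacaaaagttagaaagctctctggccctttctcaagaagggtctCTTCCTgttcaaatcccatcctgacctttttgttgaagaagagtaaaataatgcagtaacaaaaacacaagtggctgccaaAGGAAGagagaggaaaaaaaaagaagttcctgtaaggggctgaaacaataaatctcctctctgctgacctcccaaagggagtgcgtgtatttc
Cd164 (chr10:41519250-41519499, plus strand): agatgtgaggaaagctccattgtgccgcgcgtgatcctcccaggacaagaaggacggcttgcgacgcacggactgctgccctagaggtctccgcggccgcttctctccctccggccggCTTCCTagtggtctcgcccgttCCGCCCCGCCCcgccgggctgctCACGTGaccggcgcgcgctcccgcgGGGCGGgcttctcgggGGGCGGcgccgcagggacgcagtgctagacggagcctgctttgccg
The Cd34 stretch held 6 CpG dinucleotides and the Emcn stretch 1, whereas the Cd164 stretch held 33. The median over 32851 promoter stretches of the same length was 6. Cd164 lay at the 96.5th percentile by CpG number and had a GC content of 71.6%, against 46.4% for Cd34 and 40.8% for Emcn. The ETS core occurred in all 3 stretches, 1 time in Cd34, 2 times in Emcn and 1 time in Cd164, and in 29.5% of all stretches. The GC box matched 4 times in Cd164, where 2 of the matches overlap each other, and the E box 1 time there. These motifs were present in 32.7% and 6.02% of all stretches. The GATA and RUNX letters had 0 matches in the 3 stretches, against 9.99% and 14.0% of all stretches. The matches describe letters only and were not tested for binding.

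Values are log2 signals from RMA, a method that corrects background, normalizes arrays and summarises probes, and a difference is between log2 means with its standard error (SE). Calls were made by limma, a linear model fitted to all 17576 genes with a moderated spread, at a threshold of 0.05 for the adjusted p. Adjustment was by the Benjamini-Hochberg method over all of them. A probe set's brightness also depends on its probes, so levels are compared between populations and not between genes. Of the arrays, LT-HSC replicate 1 and that of ST-HSC with the same number stood apart. Their median correlations to the other arrays were 0.956 and 0.968 against 0.976 to 0.985. Several of the members' differences are also given without these arrays.

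By limma, 0 of 4 members were called in any comparison. In MPP against LT-HSC the background was 0.125% of genes called, in ST-HSC against LT-HSC 0.933% and in MPP against ST-HSC 0.193%. At an unadjusted p under 0.05, 2 of 4 members passed in MPP against LT-HSC (Cd34 and Podxl), 0 of 4 in ST-HSC against LT-HSC and 3 of 4 in MPP against ST-HSC (Cd34, Podxl and Emcn). The corresponding shares of all genes were 10.6%, 11.1% and 6.89%. The arrays of the compared populations did not overlap for 3 of 4 members in MPP against LT-HSC, 1 of 4 in ST-HSC against LT-HSC and 4 of 4 in MPP against ST-HSC, where all genes gave 24.7%, 23.3% and 14.2%. In MPP against ST-HSC 3 members were higher in MPP, where 7.75% of genes were higher without overlap, and Podxl was lower, where 6.43% were. The median difference of the 4 members was 0.32, 0.13 and 0.41 in these comparisons, in the same order, beside 0.06, 0.02 and 0.01 over all genes.

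Cd34 signal was highest in MPP on every array. It read 8.50 and 10.20 in LT-HSC replicates 1 and 3. In ST-HSC it read 9.55, 10.15 and 10.07 in replicates 1, 2 and 3. In MPP it read 11.00, 10.85 and 10.92. MPP arrays lay above all others without overlap, whereas the LT-HSC arrays lay on either side of the ST-HSC arrays. LT-HSC replicate 3, an array of cells gated as CD34-, therefore carried as much Cd34 signal as the CD34+ ST-HSC arrays. In bulk samples such as these, fewer cells with a transcript and less transcript per cell cannot be told apart.

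Cd34 averaged 9.35 ± 1.20 (SD, n = 2) over the LT-HSC arrays, 9.92 ± 0.33 (SD, n = 3) over those of ST-HSC and 10.92 ± 0.08 (SD, n = 3) over those of MPP. MPP exceeded ST-HSC by 1.00 (SE 0.35, single-gene 95% interval 0.24 to 1.77, limma adjusted p = 0.456), a 2.00-fold difference. With the replicate number as a block in a fit of these 2 populations, the same difference passed (limma adjusted p = 0.0236), and with the block over all arrays it did not (limma adjusted p = 0.081). It also passed with array weights (0.87, limma adjusted p = 0.0263). MPP exceeded LT-HSC by 1.58 (SE 0.39, interval 0.72 to 2.43, limma adjusted p = 0.194), and this passed with the replicate block over all arrays (1.54, limma adjusted p = 0.0347). The fits with a block assume that replicate numbers pair the arrays, which was not established. Without the pair of arrays that stood apart, MPP exceeded ST-HSC by 0.82 (limma adjusted p = 0.051) and LT-HSC by 0.73 (limma adjusted p = 0.209).

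The step from LT-HSC to ST-HSC, at which the gate changes from CD34- to CD34+, rested on which LT-HSC array was used. The mean difference was 0.57 (SE 0.39, interval -0.28 to 1.43, limma adjusted p = 0.62). Against LT-HSC replicate 1 alone it was 1.42 (limma adjusted p = 0.0226), and against replicate 3 alone it was -0.28 (limma adjusted p = 0.941). Within replicate number 1, Cd34 climbed in steps from LT-HSC to ST-HSC by 1.05 and from ST-HSC to MPP by 1.46. Within replicate number 3 the first step was -0.13 and the second 0.85. The MPP minus LT-HSC difference was 2.51 within number 1 and 0.72 within number 3, and MPP minus ST-HSC within number 2 was 0.70. Of these steps, that from ST-HSC to MPP kept its sign in each set of same-numbered arrays and that from LT-HSC to ST-HSC did not.

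**Figure D1:**
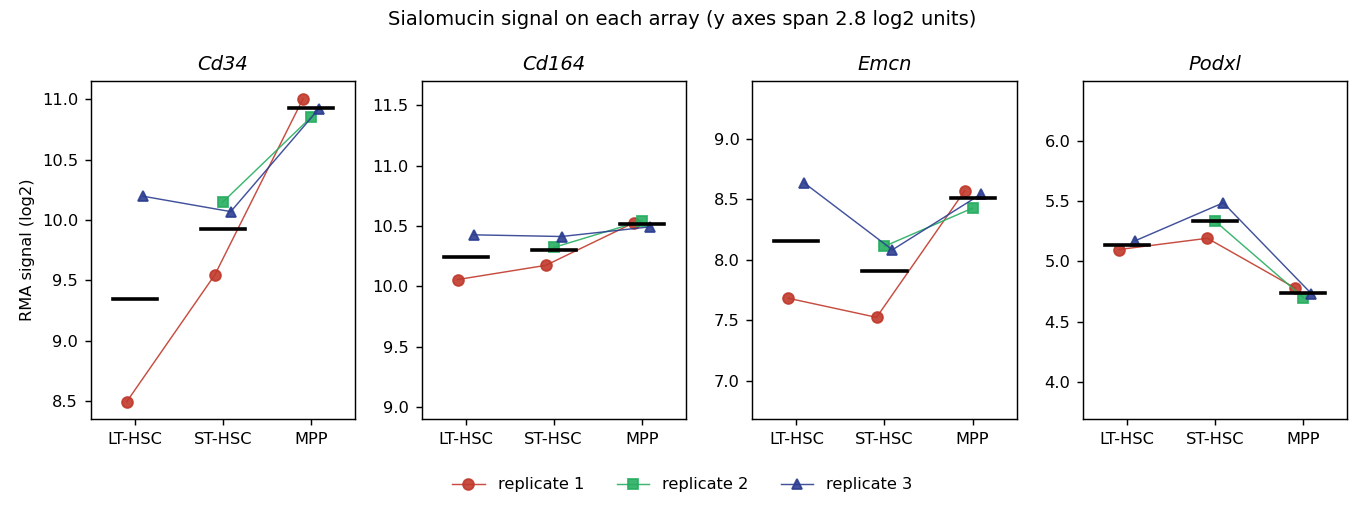
RMA signal (log2, y axis) of Cd34, Cd164, Emcn and Podxl on each of the 8 arrays by population (x axis). Symbols and lines join arrays of the same replicate number, black bars are population means, and all y axes span 2.8 log2 units. Cd34 ran from 8.50 to 10.20 in LT-HSC and from 10.85 to 11.00 in MPP, and Podxl was lower on every MPP array than on any other.

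The gap of 1.70 between the LT-HSC arrays, a 3.25-fold difference, was exceeded or equalled by 0.393% of all genes tested. LT-HSC replicate 1 had the narrowest interquartile range of all arrays (2.49, others 2.73 to 3.06), and bright probe sets read lower there. Among 144 genes with a mean within 0.25 of that of Cd34, the median deviation on this array from the mean over all arrays was -0.34, while Cd34 deviated by -1.66. The low reading of Cd34 was thus larger than the shift of genes of like level on that array. The spread of Cd34 within populations lay at the 97.5th percentile of all genes.

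Podxl, the podocalyxin gene, was lowest in MPP, where Cd34 was highest. It read 5.10 and 5.17 in LT-HSC replicates 1 and 3. In ST-HSC it read 5.19, 5.33 and 5.49 in replicates 1, 2 and 3, and in MPP 4.78, 4.70 and 4.73. The 3 populations did not overlap, with ST-HSC above LT-HSC and LT-HSC above MPP. ST-HSC replicate 1 (5.19) was nearly equal to LT-HSC replicate 3 (5.17), so the order of these populations rested on a small margin. Among 1967 genes with a mean within 0.25 of that of Podxl, the median deviation on LT-HSC replicate 1 was 0.15, while Podxl deviated by 0.04. On LT-HSC replicate 3 the values were -0.01 and 0.11.

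Podxl averaged 5.13 ± 0.05 (SD, n = 2) over the LT-HSC arrays, 5.34 ± 0.15 (SD, n = 3) over those of ST-HSC and 4.74 ± 0.04 (SD, n = 3) over those of MPP. MPP minus ST-HSC was -0.60 (SE 0.15, interval -0.93 to -0.27, limma adjusted p = 0.18), a 1.51-fold lower signal. It ranked 193rd of all genes by p in that comparison and among the alternatives run passed only with array weights (-0.64, limma adjusted p = 0.00904). Without the arrays that stood apart it was -0.67 (limma adjusted p = 0.0963). MPP minus LT-HSC was -0.40 (SE 0.17, limma adjusted p = 0.446). ST-HSC minus LT-HSC was 0.20 (SE 0.17, interval -0.16 to 0.57, limma adjusted p = 0.684). Within replicate numbers 1, 2 and 3, MPP minus ST-HSC was -0.41, -0.63 and -0.75, and MPP minus LT-HSC was -0.32 within number 1 and -0.44 within number 3. Podxl had a steady signal, with a spread within populations at the 4.47th percentile of all genes. Its mean was low, at the 50.4th percentile of all probe sets, and RMA compresses differences of dim ones.

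Emcn, the endomucin gene, also varied widely between arrays of the stem cell populations. It read 7.68 and 8.64 in LT-HSC replicates 1 and 3. In ST-HSC it read 7.52, 8.11 and 8.08 in replicates 1, 2 and 3, and in MPP 8.57, 8.43 and 8.54. LT-HSC replicate 3 was the highest of all arrays and ST-HSC replicate 1 the lowest. MPP lay above ST-HSC without overlap, and LT-HSC spanned both.

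Emcn averaged 8.16 ± 0.67 (SD, n = 2) over the LT-HSC arrays, 7.91 ± 0.33 (SD, n = 3) over those of ST-HSC and 8.51 ± 0.08 (SD, n = 3) over those of MPP. MPP minus ST-HSC was 0.61 (SE 0.25, interval 0.06 to 1.15, limma adjusted p = 0.623), or 1.05, 0.32 and 0.46 within replicate numbers 1, 2 and 3. Without the arrays that stood apart, it was 0.42 (limma adjusted p = 0.318). MPP minus LT-HSC was 0.35 (SE 0.28, limma adjusted p = 0.623) and turned to -0.12 without LT-HSC replicate 1 (limma adjusted p = 1). ST-HSC minus LT-HSC was -0.25 (SE 0.28, limma adjusted p = 0.767), -0.16 within number 1 and -0.55 within number 3, and turned to 0.22 without LT-HSC replicate 3 (limma adjusted p = 0.589).

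Cd164 had a bright signal that varied little. It read 10.06 and 10.43 in LT-HSC replicates 1 and 3. In ST-HSC it read 10.17, 10.32 and 10.41 in replicates 1, 2 and 3, and in MPP 10.53, 10.54 and 10.49. MPP lay above every other array, by as little as 0.07 between replicate 3 of MPP and of LT-HSC, and the stem cell populations overlapped.

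Cd164 averaged 10.24 ± 0.26 (SD, n = 2) over the LT-HSC arrays, 10.30 ± 0.12 (SD, n = 3) over those of ST-HSC and 10.52 ± 0.03 (SD, n = 3) over those of MPP. MPP minus LT-HSC was 0.28 (SE 0.18, limma adjusted p = 0.566), 0.47 within replicate number 1 and 0.07 within number 3. It was 0.09 without the arrays that stood apart, where LT-HSC is 1 array. MPP minus ST-HSC was 0.22 (SE 0.16, interval -0.13 to 0.57, limma adjusted p = 0.982), or 0.15 without the arrays that stood apart (limma adjusted p = 0.825). ST-HSC minus LT-HSC was 0.06 (SE 0.18, limma adjusted p = 0.929), and quantile normalization turned it to -0.11.

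**Figure D2:**
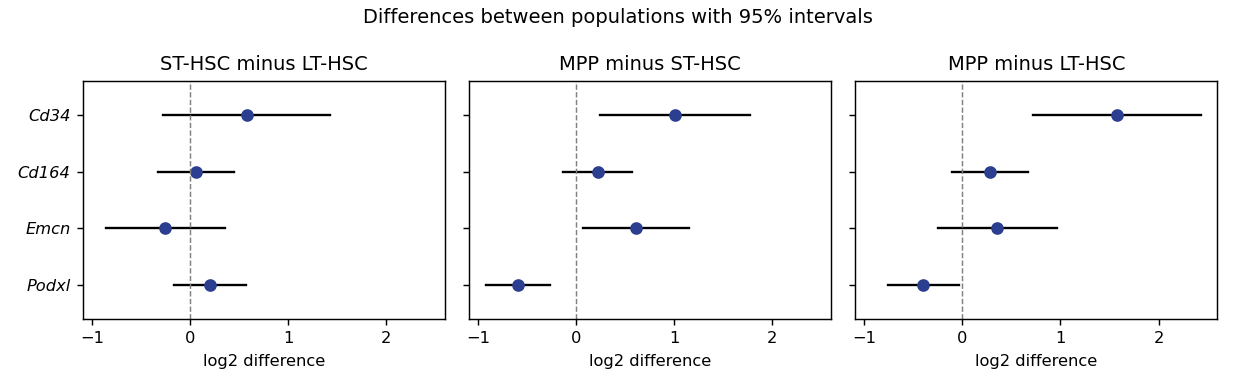
Log2 difference (x axis) of the 4 sialomucin genes (y axis) in each comparison of populations, from limma over all genes. Points are differences of means and bars are single-gene 95% intervals, not adjusted for the number of genes. The MPP minus ST-HSC interval of Cd34 ran from 0.24 to 1.77 and that of Podxl from -0.93 to -0.27, on opposite sides of 0.

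Over all populations at once, the F test of limma called none of the members, with adjusted p = 0.182 for Cd34, 0.206 for Podxl, 0.561 for Emcn and 0.714 for Cd164, while 0.905% of all genes were called. For each member by itself, the population labels were permuted exactly over 560 assignments, which cannot give a p below 0.00357. The exact permutation p was 0.00714 for Podxl, 0.0643 for Cd34, 0.139 for Cd164 and 0.214 for Emcn. These are unadjusted p-values of 4 tests, and labels moved freely between replicate numbers. With labels exchanged only among arrays of 1 replicate number and that number in the model, an alternative added after seeing the data, there were 72 assignments and a lowest possible p of 0.0278. The exact permutation p was then 0.0278 for Podxl, 0.111 for Cd34, 0.0833 for Cd164 and 0.306 for Emcn.

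Cd34, Emcn and Cd164 moved together from array to array. Across the 8 arrays, Pearson's r was 0.96 for Cd34 and Cd164 (Spearman's rho 0.90), 0.89 for Emcn and Cd164 (0.74) and 0.82 for Cd34 and Emcn (0.83). After each population's mean was removed, r was 0.94, 0.95 and 0.97 for the same pairs. Podxl correlated with Cd34, Emcn and Cd164 at -0.53, -0.50 and -0.48, and at 0.50, 0.66 and 0.69 once population means were removed. These values are descriptions of 8 arrays that share signal range and normalization, and they were not set beside those of other gene pairs. The replicate 1 arrays of both stem cell populations were low for Cd34, Emcn and Cd164 alike. On LT-HSC replicate 1, Emcn and Cd164 lay near the median of genes of like level.

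By Pearson's r over the 8 arrays among 14888 genes, the patterns most like Cd34 were those of Adgrg3 (0.997), an adhesion G protein-coupled receptor, Macroh2a1 (0.989), a histone variant, and Luc7l (0.984), a splicing factor. Adgrg3 read 6.04 and 7.49 in LT-HSC replicates 1 and 3, 6.93, 7.51 and 7.43 in ST-HSC, and 8.43, 8.15 and 8.17 in MPP. It thus shared with Cd34 the low LT-HSC replicate 1 and the gap below MPP. Most like Podxl were Zfp948 (0.985), a zinc finger gene, Aldh1a1 (0.977), a retinaldehyde dehydrogenase, and Tgfbr3 (0.975), the co-receptor betaglycan. Most like Emcn were Ddx60 (0.986), an antiviral helicase, Cplane1 (0.985), a ciliogenesis gene, and Trim30c (0.983). Most like Cd164 were Ankrd11 (0.992), the adaptor Shc1 (0.991) and the kinase Map4k4 (0.985). The likeness was ranked over many genes on only 8 arrays and is given as a description.

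Markers of other cells differed by array and are given beside the members. Relative to their means over all arrays, 20 granulocyte and monocyte genes stood at 0.61 on LT-HSC replicate 1, 0.91 on ST-HSC replicate 1 and 0.56 on MPP replicate 1, and from -0.78 to -0.19 elsewhere. Cd34, Emcn and Cd164 were low on replicate 1 of LT-HSC and ST-HSC but not of MPP. On LT-HSC replicate 1, Emcn (-0.52) and Cd164 (-0.31) lay near the median of genes of like level (-0.47 and -0.30). Cd34 lay below it there. On ST-HSC replicate 1, Cd34 (-0.61), Emcn (-0.67) and Cd164 (-0.20) lay below the like-level medians of -0.06, -0.10 and -0.03. The part of these cells in the members' values was not tested.

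Endothelium also carries Cd34, Podxl and Emcn, so 13 endothelial genes outside the family were read on each array. Pecam1, Tek, Eng, Esam, Egfl7 and Erg were left out of this list as genes that stem cells also express. All 13 were matched and tested, and limma called 0 in any comparison. At an unadjusted p under 0.05 there were 3 for MPP minus LT-HSC, 2 for MPP minus ST-HSC and 0 for ST-HSC minus LT-HSC. The shares of all genes were 10.6%, 6.89% and 11.1%. Tie1 and Robo4, receptors also known from stem cells but kept in the list, lay between 6.70 and 7.72 and between 5.72 and 7.08. The mean level of the 13 ran from 4.98 to 5.10 in LT-HSC, from 4.88 to 5.14 in ST-HSC and from 4.77 to 4.95 in MPP. Cdh5, the vascular cadherin, lay between 4.03 and 4.82 on all arrays, and Kdr, the main VEGF receptor, between 4.38 and 5.32. The list was highest on ST-HSC replicate 1, where its deviation was 0.20 and where Emcn (-0.67) and Cd34 (-0.61) were low. In MPP against ST-HSC, 11 of the 13 differences were negative, beside 8494 of 17576 over all genes. Of the genes left out, Egfl7 (0.52), Erg (0.46), Pecam1 (0.27) and Eng (0.21) were higher in MPP. Tek (-1.19) and Esam (-0.48) were lower there. Of the members, Podxl was lower and 3 of 4 were higher. The part of endothelium in the members' values was not tested. For 16 stroma genes the deviation on ST-HSC replicate 1 was 1.35, and between -0.42 and 0.19 elsewhere.

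The mean of the megakaryocyte and platelet markers followed the order of Podxl across populations, but not each gene did. The mean of 9 such genes ran from 6.34 to 6.57 in LT-HSC, from 6.71 to 7.58 in ST-HSC and from 5.73 to 6.08 in MPP, with no overlap. In ST-HSC against LT-HSC, 8 differences were positive and that of Vwf was negative (-0.75). In MPP against LT-HSC, 7 were negative, while Itga2b (0.01) and Gp6 (0.09) were positive. In MPP against ST-HSC, all 9 were negative. Against LT-HSC, 2 of the 9 were called higher in ST-HSC, the platelet integrin Itga2b and the glycoprotein Gp5, beside 149 of all 17576 genes. Itga2b rose by 1.18 (limma adjusted p = 0.00814) and Gp5 by 1.44 (limma adjusted p = 0.0194). In MPP against ST-HSC, 3 of the 9 were called lower, beside 22 of all genes. They were the chemokine Pf4 (-2.00, limma adjusted p = 0.034), Itga2b (-1.17) and Gp5 (-1.81, both limma adjusted p = 0.0141). In MPP against LT-HSC, 1 of the 9 was called lower, Vwf, beside 21 of all genes. These calls were not stable, although every alternative kept their direction. Without LT-HSC replicate 1 and ST-HSC replicate 1, or without LT-HSC replicate 1 alone, neither Itga2b (limma adjusted p = 0.0923 and 0.058) nor Gp5 (limma adjusted p = 0.229 and 0.217) was called in ST-HSC against LT-HSC, and without ST-HSC replicate 3 both again missed the threshold (limma adjusted p = 0.0507 and 0.0941). Both also missed it with array weights (limma adjusted p = 0.0512 and 0.155), as did Gp5 without MPP replicate 3, without all replicate 1 arrays and in a fit of these populations alone (limma adjusted p = 0.0512, 0.202 and 0.068). In MPP against ST-HSC, all 3 calls ended with median centring (limma adjusted p = 0.0615 for Itga2b and Gp5, 0.124 for Pf4) and without MPP replicate 2, MPP replicate 3 or ST-HSC replicate 3, where limma adjusted p ran from 0.0658 to 0.168. The Pf4 call ended without any 1 array of ST-HSC or MPP and with no filter, and that of Itga2b also without MPP replicate 1 or ST-HSC replicate 2. The Vwf call ended in 7 of 18 alternatives, among them median centring and the omission of LT-HSC replicate 1 or of any 1 MPP array. On ST-HSC replicate 1, the highest array of the list with a deviation of 1.10, Podxl was the lowest of the ST-HSC arrays. Whether megakaryocyte-primed cells bear on the Podxl values was not tested.

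**Figure D3:**
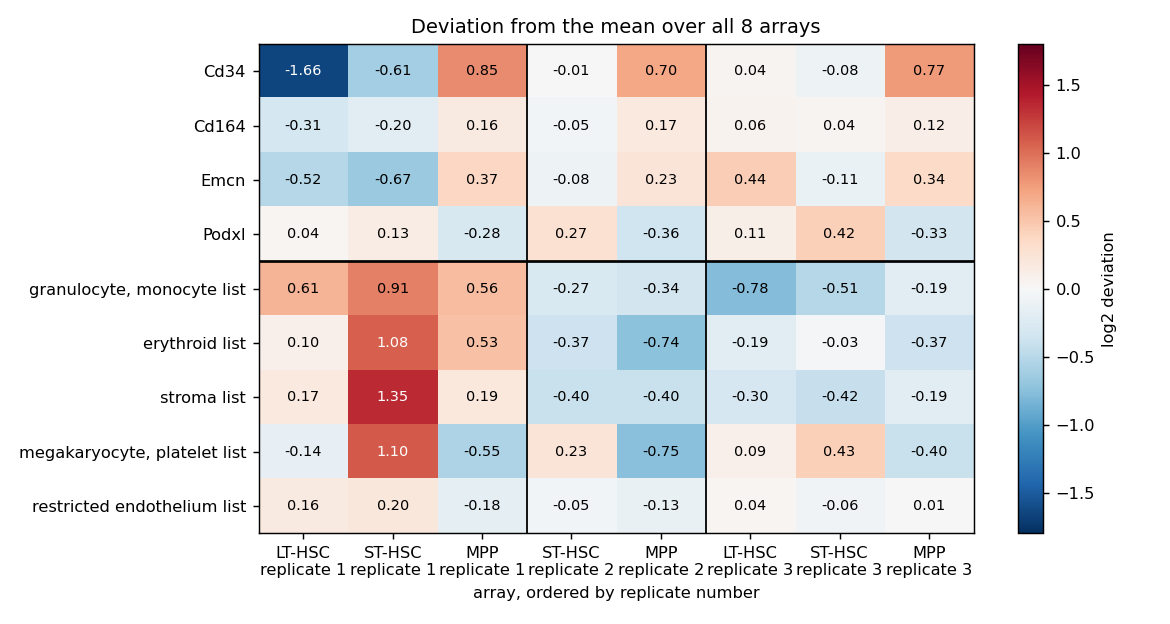
Log2 deviation from the mean over all 8 arrays (colour and printed value) of the 4 sialomucin genes and of the mean of 5 marker lists (rows), for each array ordered by replicate number (columns). Cd34, Cd164 and Emcn were negative on replicate 1 of LT-HSC and ST-HSC, whereas the granulocyte and monocyte list was positive on all 3 replicate 1 arrays.

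Of the gate genes, Slamf1 (CD150) fell in the CD150- MPP (difference -2.72 from LT-HSC, limma adjusted p = 0.00115, and -2.28 from ST-HSC, limma adjusted p = 0.00218). Cd48 read 5.92 and 6.63 in LT-HSC, 7.49, 6.51 and 6.57 in ST-HSC and 7.84, 6.65 and 6.96 in MPP, so CD48- ST-HSC and CD48+ MPP overlapped in transcript. Kit lay between 9.84 and 10.45 on all arrays, and Ly6a, which encodes Sca1, was not analysed here. The lineage gate should remove mature cells of the blood lineages. The mean of 11 B cell genes was 4.61 to 5.02 and that of 11 T and NK cell genes 4.03 to 4.29 across arrays. Within the B cell list, Cd79b read 7.13 to 8.08. The mean of the 20 granulocyte and monocyte genes was uneven, from 5.89 on LT-HSC replicate 3 to 7.58 on ST-HSC replicate 1. Of 17 erythroid genes named, 7 were matched, with no hemoglobin gene among them. Their mean was 6.47 to 8.30 and limma called 0 (1 at an unadjusted p under 0.05, for MPP minus ST-HSC). The deviation of this mean was 1.08 on ST-HSC replicate 1, 0.53 on MPP replicate 1, 0.10 on LT-HSC replicate 1 and -0.74 to -0.03 elsewhere. In MPP minus ST-HSC all 7 differences were negative, beside 8494 of 17576 over all genes.

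Other mucin-type glycoproteins were examined as carriers of the same kind of sugar. Of 15 tested, limma called 0 in any comparison. At an unadjusted p under 0.05 there were 5, 4 and 2 in MPP against LT-HSC, ST-HSC against LT-HSC and MPP against ST-HSC. The shares of all genes were 10.6%, 11.1% and 6.89%. Their median differences were 0.37, 0.15 and 0.07. Selplg, the P-selectin ligand PSGL-1, read 8.75 and 9.14 in LT-HSC, 8.90, 8.98 and 9.21 in ST-HSC and 9.52, 9.21 and 9.53 in MPP. It was higher on each MPP array than on either LT-HSC array, by 0.48 on average (limma adjusted p = 0.44). Cd24a, a small mucin-like anchor protein, lay between 11.40 and 11.70 on all arrays. Muc13, an epithelial and progenitor mucin, differed by 0.62 in ST-HSC against LT-HSC (limma adjusted p = 0.34). The hyaluronan receptor Cd44, included for its selectin-binding glycoform, read 7.00 and 7.89 in LT-HSC and 8.24, 8.55 and 8.33 in MPP (difference 0.93, limma adjusted p = 0.299).

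Selectins and the proteins that bind sialomucin tails or act beside them were read next. Of 22 tested, limma called 0, with 6, 4 and 2 at an unadjusted p under 0.05, beside 10.6%, 11.1% and 6.89% of all genes. Their medians were 0.23, 0.23 and 0.08. LT-HSC replicate 1 was low for this list too, at 7.39 against 7.73 to 7.90 on the other arrays. Cxcr4, the chemokine receptor that CD164 associates with, read 8.07 and 7.81 in LT-HSC, 8.59, 8.69 and 8.51 in ST-HSC and 8.81, 9.75 and 8.74 in MPP. The order LT-HSC, ST-HSC, MPP held without overlap, and MPP exceeded LT-HSC by 1.16 (limma adjusted p = 0.187). Of the linkers to actin, Msn (moesin) lay between 8.84 and 9.45 and Rdx (radixin) between 8.13 and 8.77. Ezr (ezrin) read 6.83 and 7.91 in LT-HSC and 7.92 to 8.20 in MPP (difference 0.68, limma adjusted p = 0.458). Slc9a3r1, the scaffold NHERF1 that binds podocalyxin's tail, differed by 0.39 in MPP against LT-HSC (limma adjusted p = 0.535).

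Enzymes that start and branch O-linked sugars, and those that add sialic acid, fucose or sulfate, were called by limma in 0 of 26 and 0 of 32 cases in every comparison. At an unadjusted p under 0.05 the first list had 2, 4 and 5 genes and the second 2, 1 and 1. The shares of all genes were 10.6%, 11.1% and 6.89%. Medians lay between -0.03 and 0.13 for the first and between -0.01 and 0.07 for the second. Galnt1, which attaches the first sugar, lay between 9.55 and 10.13 on all arrays. C1galt1, the core 1 synthase that extends it, read 6.97 and 7.70 in LT-HSC, 8.41, 7.90 and 7.97 in ST-HSC and 7.83, 7.34 and 7.46 in MPP. It was thus highest in ST-HSC without overlap, by 0.76 over LT-HSC (limma adjusted p = 0.290). St3gal1, which caps core 1 with sialic acid, lay between 8.36 and 9.31. St8sia4, a polysialyltransferase, was lowest in ST-HSC without overlap, at 7.21, 7.84 and 7.84 against 7.92 and 8.72 in LT-HSC and 8.77, 8.24 and 8.62 in MPP. Its MPP minus ST-HSC difference was 0.92 (limma adjusted p = 0.235), or 0.83 with array weights, where it passed (limma adjusted p = 0.0149).

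**Figure D4:**
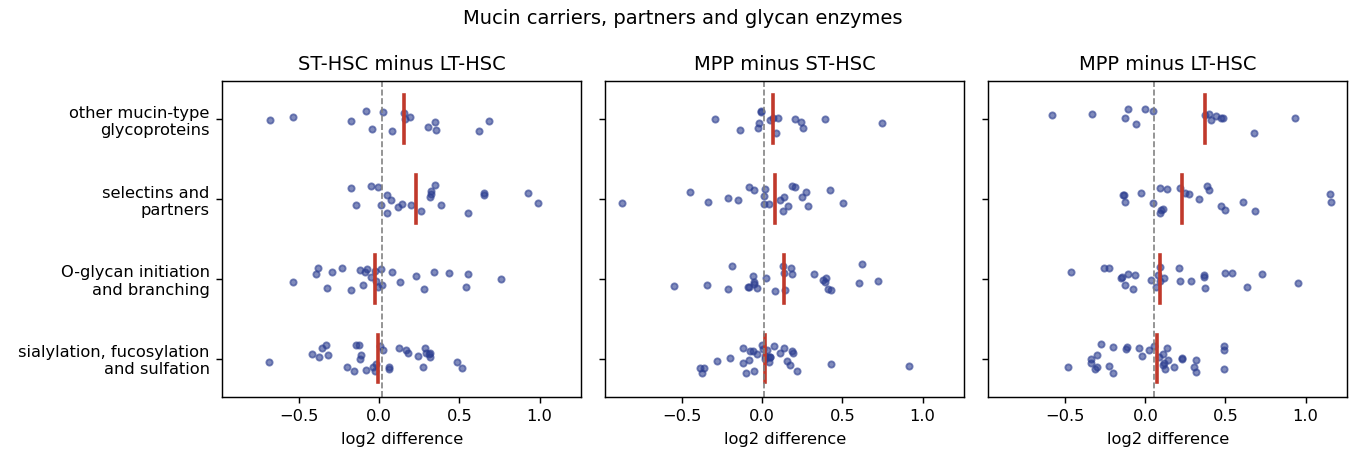
Log2 difference (x axis) of each tested gene (points) in 4 lists (y axis): other mucin-type glycoproteins, selectins and partners, and the O-glycan enzymes in 2 groups, for each comparison. Red bars are list medians and dashed lines the median of all genes tested. In MPP minus LT-HSC the medians were 0.37, 0.23, 0.09 and 0.07 from top to bottom, beside 0.06 over all genes.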

How the data were processed

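The deposited table held log2 values of 33649 probe sets on 8 arrays. Per the submitters' processing notes these were made with RMA, with a version and chip definition not given in the sources used here. No source names the scale, and the range of 2.05 to 12.94 fits log2. Per the labels' protocols, RNA was amplified (Ovation Pico WTA V2) before biotin labelling, which can add spread between arrays. Having 8 arrays limits the precision.

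Of the probe sets, 23521 had 1 gene symbol in the platform annotation, 1814 several and 8314 none, and only the first kind was used, the brightest per gene. Genes entered limma 3.58.1 (R 4.3.3) with a mean at or above 3.88, the 25th percentile over probe sets. One model over all arrays gave a mean per population (5 residual and 5.93 prior degrees of freedom). The fit was tested on simulated data with independent noise, for each gene equal in spread on all arrays. That setting held no arrays that stood apart, so it cannot show how the calls fare with them. Deviations of same-numbered ST-HSC and MPP arrays from their population means correlated weakly (r = 0.15, 0.23 and 0.21 for numbers 1, 2 and 3). Arrays of different numbers were not compared, so these values cannot establish a pairing. The fits with a block assume one. The labels state no pairing, and LT-HSC has too few arrays for this check. Fits with a block are given where they changed a call.

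The members, the lists and the tests were chosen with earlier results of these data known. Of 241 list entries, 217 matched a gene and 202 were tested. Named genes were the members, the gate genes, up to 6 called and 3 bright uncalled genes per list, and the 3 genes most like each member; St8sia4, Cxcr4, Cd44, Msn, Ezr, Rdx, Slc9a3r1, Cdh5, Kdr and the genes called in alternatives alone were added after their values were seen. Alternatives were other scalings, filters, array weights, the block and omission of arrays.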

Additional observations from a re-analysis of the deposited data

How the results depend on the processing

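All alternatives left the signs of the Cd34 and Podxl differences between MPP and each stem cell population as they were, and likewise Emcn and Cd164 in MPP minus ST-HSC and Cd164 in MPP minus LT-HSC. Some of these could not turn a sign. The filters, the average over probe sets and a fit of only the compared populations change a member's adjusted p but not its difference. The same holds for omission of an array of the third population. Leaving out 1 array at a time, Cd34 ranged from 0.73 to 2.43 (MPP minus LT-HSC), 0.82 to 1.12 (MPP minus ST-HSC) and -0.28 to 1.42 (ST-HSC minus LT-HSC), and its limma adjusted p over all alternatives from 0.00794 to 0.759, 0.0236 to 1 and 0.0226 to 0.978. Cd34 passed without LT-HSC replicate 3 at 2.43 and 1.42 against LT-HSC, where that population is 1 array assumed to vary like the others. With the replicate block over all arrays it passed at 1.54 in MPP minus LT-HSC but not in MPP minus ST-HSC (1.00, limma adjusted p = 0.081), which passed at 1.00 with the block over ST-HSC and MPP alone (limma adjusted p = 0.0236) and at 0.87 with array weights; the block changed no other member's call. In ST-HSC minus LT-HSC it turned to -0.088 without LT-HSC and ST-HSC replicate 1 together and without all replicate 1 arrays. Podxl passed only with array weights in MPP minus ST-HSC (-0.64), with limma adjusted p from 0.00904 to 0.628. Emcn in MPP minus LT-HSC ranged from -0.12 to 0.83 by omission, and was -0.12 without both replicate 1 arrays of LT-HSC and ST-HSC and -0.15 without all 3. Emcn in ST-HSC minus LT-HSC ranged from -0.73 to 0.22. Cd164 in ST-HSC minus LT-HSC ranged from -0.12 to 0.25, and was -0.11 with quantile normalization and -0.059 in both settings that leave out several replicate 1 arrays. The cause of these changes was not tested.

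Counts over all genes moved more. From 22 in MPP minus LT-HSC they went to 14 (no replicate 1 arrays), 9 (array weights), 5 (median centring), 37 (quantile normalization), 157 (replicate block) and 6 to 615 by omission, the highest without LT-HSC replicate 3. From 34 in MPP minus ST-HSC they went to 104, 525, 1 (median centring), 71 (only these populations), 267 and 289 (replicate block over all arrays and over both populations), 78 (without LT-HSC and ST-HSC replicate 1) and 1 to 71 by omission. From 164 in ST-HSC minus LT-HSC they went to 70, 61, 104 (median centring), 100 (only these populations), 473 (replicate block), 0 (without LT-HSC and ST-HSC replicate 1) and 17 to 825 by omission. Median centring shifted the median of all genes by 0.12, 0.01 and 0.11 in these comparisons and turned no member's sign. Of the calls, 1 was higher and 21 lower in MPP minus LT-HSC (0 and 5 after centring), and 12 were higher and 22 lower in MPP minus ST-HSC (0 and 1).

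In the lists, calls appeared without LT-HSC replicate 3, from 0 to 2 (Tmem123, Cd44) and 1 (Tmem123) among other mucins, 0 to 3 (Ezr, Clic4, Clic5) in both comparisons with LT-HSC among partners, and 0 to 2 among O-glycan enzymes (B3gnt5 and B4galt1, then C1galt1 and B4galt1). With the replicate block, 1 partner (Clic5) was called in each of these comparisons, and with array weights 1 sialyltransferase (St8sia4) in MPP minus ST-HSC. No member had a further probe set with 1 symbol to read in its place, so that alternative was not run. Averaging all probe sets of each gene was run and changed no call in the lists. For the members it was no check, since each has 1 such probe set and its differences could not change. The exact permutation test within replicate numbers, added after seeing the data, left each member on its side of the threshold.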
